A study of Saccharomyces cerevisiae with 8 samples.

Results

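The 26S proteasome is the protease of the cell that takes apart ubiquitin-tagged proteins, and the genes described here are its 33 subunits in budding yeast, Saccharomyces cerevisiae, with the core assembly chaperone UMP1, the base chaperone RPN14 and the transcription factor RPN4. Members were the probe sets whose only gene symbol in the array's annotation was one of these names. They came to 36 genes on 40 probe sets, out of 8330 probe sets that were averaged into 7641 features, 5580 of them named genes. By place in the complex they were 7 genes of the alpha ring, 7 of the beta ring, 10 of the base, 9 of the lid, 2 assembly factors and 1 regulator.

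The samples were total RNA of log-phase yeast on 8 one-colour oligonucleotide arrays, part of a study of yeast ageing. A wild-type strain and an sgs1 null strain, which lacks the RecQ-family DNA helicase Sgs1, were each sampled without treatment and after growth with MMS (methyl methanesulfonate), which alkylates DNA and proteins. Each of the 4 groups had 2 arrays, the second one marked rep in its label. The sources used here do not give the dose and time of MMS, the background of the strains or how the SGS1 gene was removed. They also do not say whether a group's arrays stand for separate cultures, so the p-values rest on a spread between samples that may be technical.

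The proteasome has a barrel-shaped core, with alpha subunits that gate its ends and beta subunits that cut peptide bonds inside, and a regulatory particle made of a base and a lid. The base unfolds substrates with a ring of ATPases and the lid removes their ubiquitin. In yeast, Rpn4 binds an element shared by the promoters of most proteasome genes and raises their transcription under stress. Rpn4 is itself a very short-lived substrate of the proteasome, so that the complex limits the amount of its own activator.

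The deleted gene was where the labels put it, with deposited SGS1 intensities from 1.7 to 17.7 on the sgs1 null arrays and from 339.1 to 777.3 on the wild-type arrays. Before normalization array means lay between 1906 and 2000 and array medians between 775 and 971.6. The small number of arrays sets the precision of every value. The a-type mating markers summed to between 13443 and 20982 on the 8 arrays and the 2 measured alpha-type markers to between 1121 and 2069. With limma, 0 of these 7 markers passed the threshold in any of the 7 comparisons, and at most 2 of them had an unadjusted p under 0.05 in one comparison, for the strain difference without treatment and averaged.

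Treatment with MMS went with higher signals of most proteasome genes. Averaged over the strains, 27 of the 36 members rose and 0 fell, with a median log2 change of 0.93 (median fold 1.90). The background was 8.78% of all 7641 features called higher in the same comparison, and their median change was 0.00. In wild type alone 12 members rose against a background of 3.42%, and in the sgs1 null strain alone 6 rose against 1.43%. A call here is an adjusted p under 0.05 from limma, adjusted over all features, and a change is a difference of log2 normalized intensity, given with its standard error. In bulk RNA, a change in how many cells hold a transcript and a change in its amount per cell cannot be told apart.

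More members had a higher signal with MMS than passed the test. In wild type 36 of 36 members had a positive change, from 0.11 for SEM1 to 1.69 for RPT2, and 35 had both MMS arrays above both untreated arrays, where 26.4% of all features did. In sgs1 null 34 members had a positive change, between -0.38 for SEM1 and 1.80 for RPT3, and 33 had both MMS arrays above both untreated arrays, where 23.6% of all features did. Those 33 did so in both strains. SEM1 was the member with both MMS arrays below both untreated arrays in sgs1 null. Averaged over the strains, 27 members were among the 10% of features with the largest changes, and 15 had an averaged change of 2-fold or more. Of all features, 4.67% had a larger averaged change than RPN11, which lay just under 2-fold at 1.99. The members were also measured with less scatter than most features, with a median within-group SD of 0.233 against 0.303 on the log2 scale, and the part this took in the number of calls was not tested.

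The counts in single strains depended on every array. On all 8 arrays, 29 members and 1883 of all 7641 features had an unadjusted p under 0.05 from limma in wild type. In sgs1 null 30 members and 1540 of all features did. For fits without an array the unadjusted count over all features is not given, so the unadjusted counts of members below have no background beside them. In each of those fits fewer of all features were called higher than on all 8 arrays, in each strain and on average. The lower counts of called members below are thus not particular to the members. With 1 wild-type array left out, 0 members passed in wild type by limma's adjusted p, 21 to 26 had an unadjusted p under 0.05 and 0 to 4 of all features were called higher. With 1 sgs1 null array left out, 3 to 5 members passed in wild type. In sgs1 null, 0 members passed when any 1 of the 8 arrays was left out, 21 to 29 had an unadjusted p under 0.05 and 1 to 9 of all features were called higher. The averaged count ran from 13 to 23, being 13 without the second array of sgs1 null with MMS or the first of wild type with MMS, 14 without the second untreated wild-type array or the second of wild type with MMS, and 15 without the first of sgs1 null with MMS. Of the 27 members called on average, 11 passed under all 16 alternatives in processing and arrays: PRE8, RPT3, RPN1, RPN2, RPN3, RPN6, RPN7, RPN8, RPN9, RPN12 and RPN4. Over those left-out arrays the number of members with a positive change stayed between 33 and 36 in each strain.

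**Figure D1:**
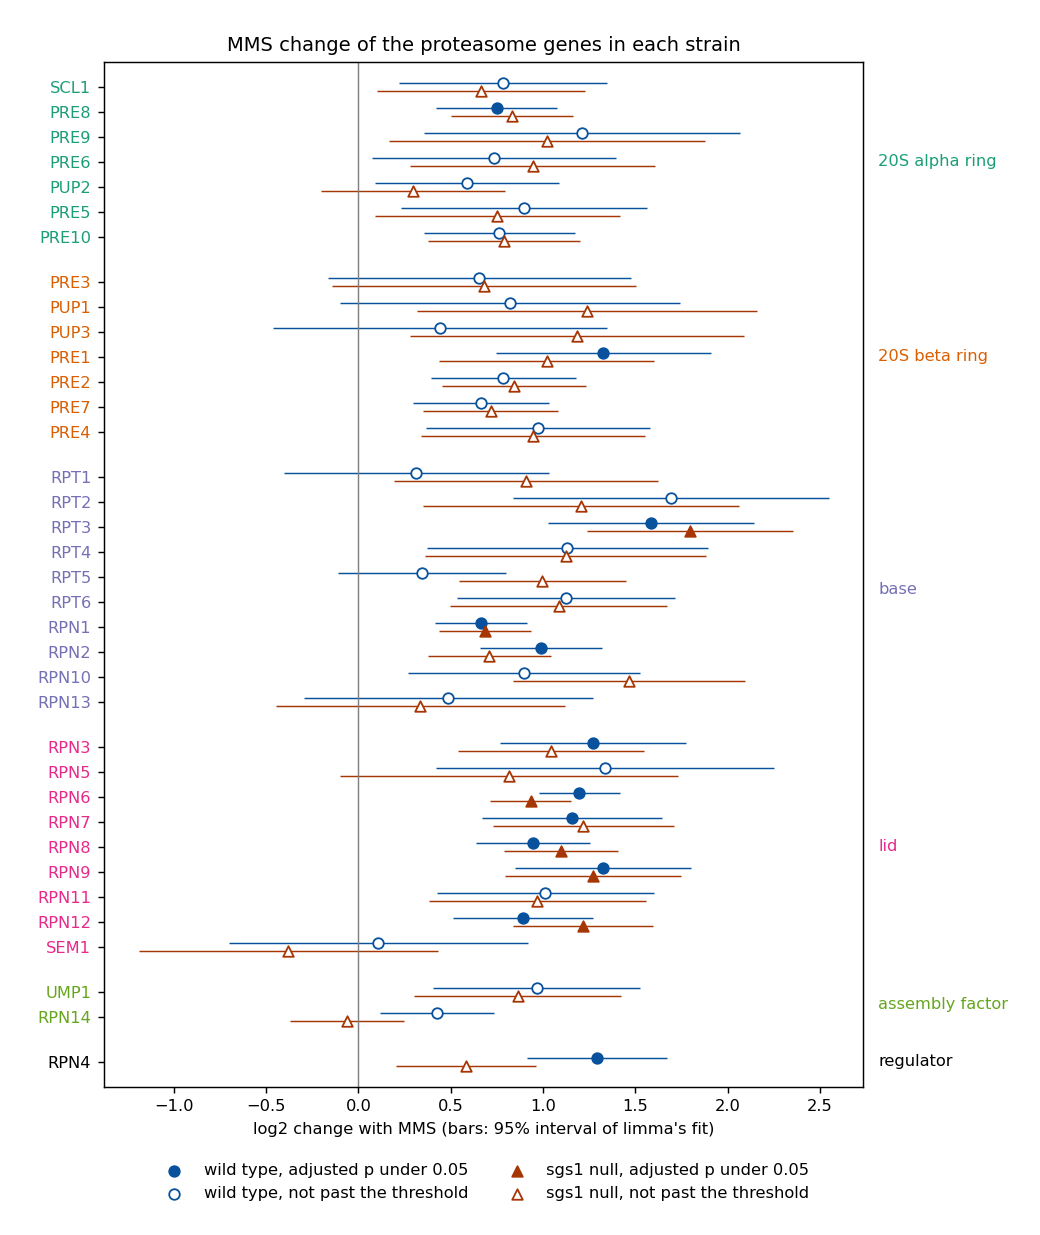
Log2 change with MMS of each of the 36 genes, wild type as circles and sgs1 null as triangles, with the 95% interval of limma's fit as bars and filled symbols for an adjusted p under 0.05. Nearly all points lie right of 0, with 12 filled circles and 6 filled triangles, and the points left of 0 are the triangles of SEM1 and RPN14.

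RPN4, the activator of the other genes, was among the members that rose. Values per array are normalized intensities on the linear scale, with the array without the mark rep first in each pair. RPN4 read 2476 and 2346 in untreated wild type, 5318 and 6564 in wild type with MMS, 3905 and 4467 in untreated sgs1 null and 5835 and 6712 in sgs1 null with MMS. Both MMS arrays of each strain were above both untreated arrays, and the untreated sgs1 null arrays were above the untreated wild-type arrays, so the untreated strains did not overlap while the treated ones did. In wild type RPN4 rose by 1.29 ± 0.15 (adjusted p = 0.0199, 2.45-fold), and this was rank 6 among the 36 members. In sgs1 null its change was 0.58 ± 0.15 (adjusted p = 0.118), which did not pass and was rank 32. Averaged over the strains it rose by 0.94 ± 0.10 (adjusted p = 0.0099).

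Without treatment RPN4 was 0.79 ± 0.15 higher in sgs1 null than in wild type (1.73-fold), the largest such difference among the members, with an unadjusted p of 0.00308 and an adjusted p of 0.231, so it did not pass. With MMS the strain difference was 0.08 ± 0.15, with a 95% interval from -0.30 to 0.46. The difference between the MMS changes of the strains, sgs1 null minus wild type, was -0.71 ± 0.21 with a 95% interval from -1.25 to -0.17 (unadjusted p = 0.0195, adjusted p = 0.997), the lowest of the members. Of the 7641 features 0 passed for that difference with limma and 363 had an unadjusted p under 0.05, RPN4 among them.

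**Figure D2:**
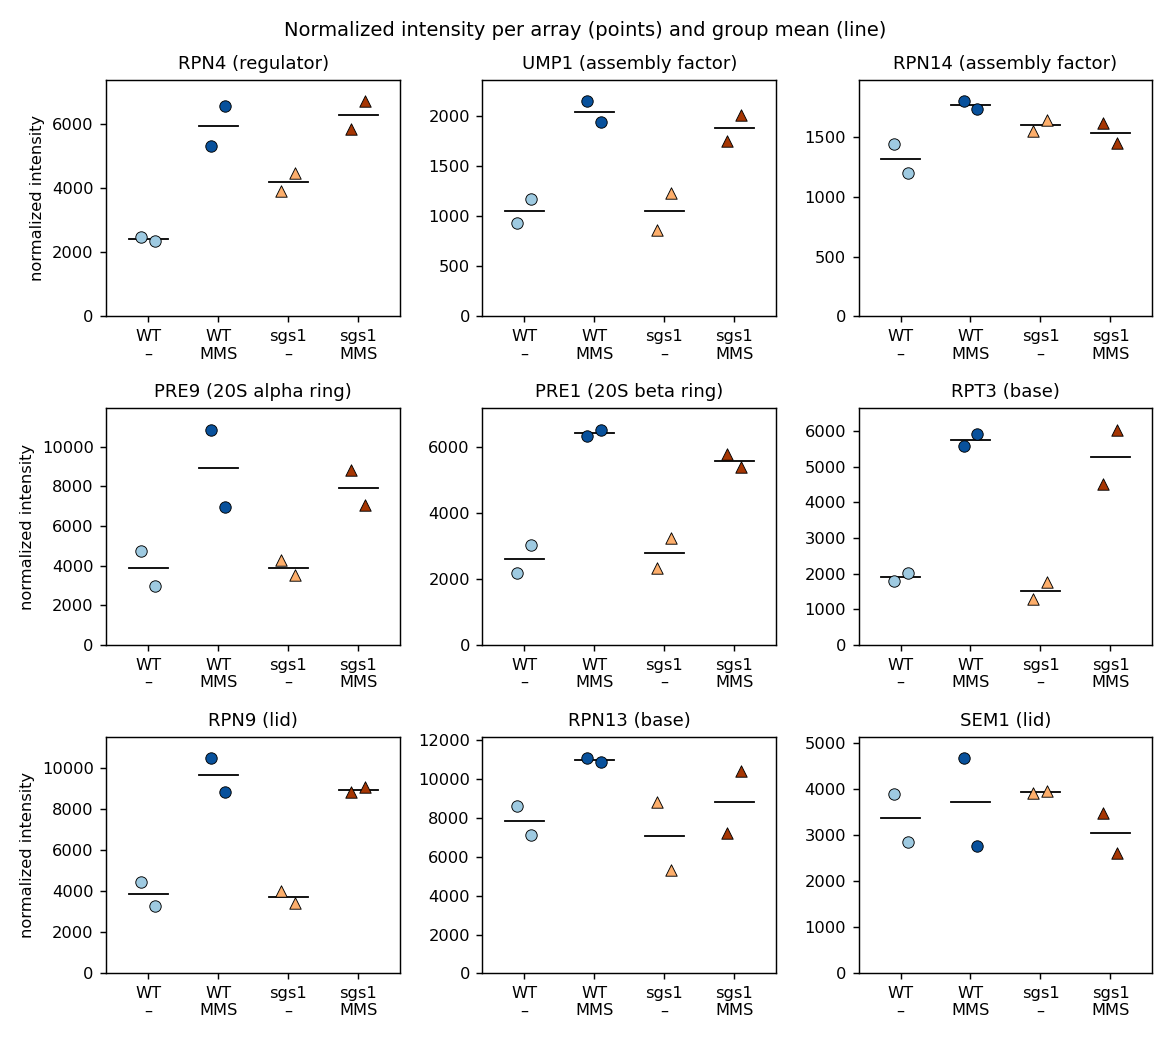
Normalized intensity (linear scale from 0) of 9 members on each array as points, with the mean of the 2 arrays as a line, for wild type (WT) and sgs1 null (sgs1), untreated (–) or with MMS. RPN4 is higher in untreated sgs1 null than in untreated wild type, and SEM1 and RPN14 are the panels without a step up in both strains.

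The assembly factors behaved unlike each other. UMP1 encodes a chaperone that is built into the half-made core and degraded when the core is finished. UMP1 read 935 and 1174 in untreated wild type, 2152 and 1944 in wild type with MMS, 866 and 1235 in untreated sgs1 null and 1758 and 2012 in sgs1 null with MMS. The MMS arrays were above the untreated arrays in both strains, and UMP1 rose by 0.91 ± 0.15 on average (adjusted p = 0.0236). RPN14 encodes a chaperone that holds ATPase subunits during assembly of the base. RPN14 read 1440.3 and 1201 in untreated wild type, 1801 and 1736 in wild type with MMS, 1552 and 1647 in untreated sgs1 null and 1616 and 1453 in sgs1 null with MMS. Its MMS arrays were above the untreated ones in wild type and overlapped them in sgs1 null. The RPN14 change was 0.43 ± 0.12 in wild type (adjusted p = 0.11), -0.06 ± 0.12 in sgs1 null and 0.18 ± 0.085 on average (adjusted p = 0.221), and none of these passed.

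In the alpha ring, whose tails close the entrance of the core, 6 of 7 genes rose on average and 7 of 7 had both MMS arrays above both untreated arrays in each strain. The median change was 0.76 in wild type and 0.79 in sgs1 null. PRE9, the alpha subunit that yeast can live without, had the largest averaged change of the ring. PRE9 read 4758 and 2962 in untreated wild type, 10865 and 6954 in wild type with MMS, 4273 and 3539 in untreated sgs1 null and 8848 and 7045 in sgs1 null with MMS. The array without the mark rep was the higher one in all 4 groups, and the MMS arrays were above the untreated ones in both strains. PRE9 rose by 1.12 ± 0.24 on average (adjusted p = 0.0398). PUP2 had the smallest change of the ring. PUP2 read 3652 and 3499 in untreated wild type, 6454 and 4467 in wild type with MMS, 3199 and 3612 in untreated sgs1 null and 4353 and 4007 in sgs1 null with MMS. Its groups did not overlap, but its change of 0.44 ± 0.14 on average did not pass (adjusted p = 0.0966). PRE8 was the alpha gene that passed in wild type alone, where it rose by 0.75 ± 0.13 (adjusted p = 0.0401). In sgs1 null PRE8 had a change of 0.83 ± 0.13, just outside the threshold (adjusted p = 0.0514). The remaining ring genes SCL1, PRE6, PRE5 and PRE10 rose on average by 0.72, 0.84, 0.82 and 0.78, with adjusted p from 0.017 to 0.0441.

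In the beta ring, which carries the active sites, 4 of 7 genes rose on average, again with 7 of 7 non-overlapping in each strain. The median change was 0.79 in wild type and 0.95 in sgs1 null. PRE1, a subunit without an active site of its own, had the largest averaged change. PRE1 read 2168 and 3025 in untreated wild type, 6335 and 6513 in wild type with MMS, 2328 and 3245 in untreated sgs1 null and 5766 and 5393 in sgs1 null with MMS. Every MMS array was well above every untreated array, and the strains overlapped without treatment but not with MMS. PRE1 rose by 1.33 ± 0.23 in wild type (adjusted p = 0.0404) and by 1.17 ± 0.16 on average (adjusted p = 0.0148).

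The 3 genes of the catalytic subunits differed in whether they passed. PRE2, of the chymotrypsin-like site, rose by 0.81 ± 0.11 on average (adjusted p = 0.0136). PUP1, of the trypsin-like site, had a larger averaged change of 1.03 ± 0.25 but a wider error and did not pass (adjusted p = 0.0568). PRE3, of the caspase-like site, had the smallest averaged change of the ring. PRE3 read 4789 and 3572 in untreated wild type, 8264 and 5129 in wild type with MMS, 3545 and 3772 in untreated sgs1 null and 7117 and 4827 in sgs1 null with MMS. The 2 arrays of a group lay far apart with MMS, yet the MMS arrays were above the untreated ones in both strains. The PRE3 change of 0.67 ± 0.23 on average did not pass (adjusted p = 0.118). PRE3 was the mean of 2 probe sets, of which 1 passed by itself on average (change 0.79, adjusted p = 0.0396) and the other did not (change 0.55, adjusted p = 0.443). Of the structural subunits, PRE4 rose by 0.96 and PRE7 by 0.69 on average, and PUP3 had an averaged change of 0.81 ± 0.25 that did not pass (adjusted p = 0.0939).

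In the base 8 of 10 genes rose on average, 3 in wild type and 2 in sgs1 null, with a median change of 0.94 in wild type and 1.04 in sgs1 null. RPT3, one of the 6 ATPases, had the largest averaged change of all members. RPT3 read 1805 and 2030.1 in untreated wild type, 5579 and 5919 in wild type with MMS, 1279.9 and 1769 in untreated sgs1 null and 4523 and 6043 in sgs1 null with MMS. The treated arrays of either strain were more than 2-fold above any untreated array. RPT3 rose by 1.59 ± 0.22 in wild type (adjusted p = 0.0275) and by 1.80 ± 0.22 in sgs1 null (adjusted p = 0.0319), and by 1.69 ± 0.15 on average (3.23-fold, adjusted p = 0.00658).

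The other ATPase genes ranged widely. RPT2, whose product helps to open the core's gate, rose by 1.45 ± 0.23 on average (adjusted p = 0.0214), with intensities of 2452 and 1546 in untreated wild type and 7900.1 and 5023 with MMS. RPT4 rose by 1.13, RPT6 by 1.11 and RPT5 by 0.67 on average. RPT1 had an averaged change of 0.61 ± 0.20 that did not pass (adjusted p = 0.106), with 0.31 in wild type and 0.91 in sgs1 null. RPT5 was the mean of 4 probe sets that were not alike. In wild type their changes ran from 0.06 to 0.65, and 1 of them held the only member value below the floor of 97.1 that was set for low intensities. In sgs1 null 1 of the 4 passed by itself (change 0.99, adjusted p = 0.0489). On average the RPT5 probe sets did not all pass by themselves in limma. Those that passed had changes of 0.70 and 0.82 (adjusted p = 0.0251 and 0.0127). The others had changes of 0.34 and 0.82 (adjusted p = 0.457 and 0.164).

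RPN1 and RPN2 encode the large scaffold subunits of the base, on which shuttle factors and the ubiquitin receptors dock. RPN1 rose by 0.66 ± 0.097 in wild type (adjusted p = 0.0311) and by 0.68 ± 0.097 in sgs1 null (adjusted p = 0.0434). RPN2 rose by 0.99 ± 0.13 in wild type (adjusted p = 0.0247) and by 0.85 ± 0.091 on average (adjusted p = 0.00873). The RPN2 change in sgs1 null, 0.71 ± 0.13, did not pass (adjusted p = 0.0653). The RPN1 changes were small for a called member but had small errors. Its intensity was 2604 and 2768 in untreated wild type, 4525 and 3992 with MMS, 2193 and 2356 in untreated sgs1 null and 3641 and 3667 with MMS. RPN10 and RPN13 encode ubiquitin receptors, and the difference between their changes was not tested. RPN10 rose by 1.18 ± 0.17 on average (adjusted p = 0.0171). RPN13 read 8608 and 7114 in untreated wild type, 11070.4 and 10865 in wild type with MMS, 8841 and 5342 in untreated sgs1 null and 7222 and 10422 in sgs1 null with MMS. The RPN13 arrays did not overlap in wild type and did in sgs1 null, where 1 treated array lay below 1 untreated array. The RPN13 change of 0.41 ± 0.22 on average, with a 95% interval from -0.14 to 0.97, did not pass (adjusted p = 0.269).

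The lid held 6 of the 12 calls in wild type and 4 of the 6 in sgs1 null. On average 7 of its 9 genes rose, with a median change of 1.16 in wild type and 1.04 in sgs1 null. RPN9, a scaffold subunit, had the largest averaged change of the lid. RPN9 read 4461 and 3299.9 in untreated wild type, 10459 and 8829 in wild type with MMS, 3998 and 3417 in untreated sgs1 null and 8820.3 and 9039 in sgs1 null with MMS. All 4 treated arrays lay above all 4 untreated arrays. RPN9 rose by 1.32 ± 0.19 in wild type (adjusted p = 0.0294) and by 1.27 ± 0.19 in sgs1 null (adjusted p = 0.0458).

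RPN6, whose product braces the lid against the core, had the smallest adjusted p of the members. RPN6 read 3764 and 3488 in untreated wild type, 8336 and 8273 in wild type with MMS, 4135 and 4321 in untreated sgs1 null and 8407 and 7749.8 in sgs1 null with MMS. The treated arrays of both strains lay close together, above all untreated arrays, and the untreated sgs1 null arrays were above the untreated wild-type arrays. RPN6 rose by 1.20 ± 0.085 in wild type (adjusted p = 0.00959), by 0.93 ± 0.085 in sgs1 null (adjusted p = 0.021) and by 1.06 ± 0.060 on average (adjusted p = 0.00311). RPN8, which encodes the partner of the lid's deubiquitinase, rose by 0.95 ± 0.12 in wild type and by 1.10 ± 0.12 in sgs1 null. RPN12, which encodes the last subunit to join the lid, rose by 0.89 ± 0.15 in wild type and by 1.22 ± 0.15 in sgs1 null. The scaffold genes RPN3 and RPN7 rose in wild type, by 1.27 ± 0.20 and 1.16 ± 0.19. Their changes in sgs1 null, 1.04 ± 0.20 and 1.22 ± 0.19, did not pass (adjusted p = 0.0696 and 0.053). On average they rose by 1.16 ± 0.14 and 1.19 ± 0.13 (adjusted p = 0.0109 and 0.01).

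RPN11, the gene of the deubiquitinase itself, rose on average by 0.99 ± 0.16 (adjusted p = 0.0219) and passed in neither strain alone. RPN5, another scaffold gene, had an averaged change of 1.08 ± 0.25, just outside the threshold (adjusted p = 0.0505). SEM1, the gene of a small acidic protein that also serves in complexes outside the proteasome, stood apart from the lid. SEM1 read 3909 and 2851 in untreated wild type, 4677 and 2769.8 in wild type with MMS, 3914 and 3954 in untreated sgs1 null and 3493 and 2618 in sgs1 null with MMS. In wild type the groups overlapped, and in sgs1 null both treated arrays were below both untreated ones. The SEM1 change was 0.11 ± 0.32 in wild type, -0.38 ± 0.32 in sgs1 null and -0.14 ± 0.22 on average, with a 95% interval from -0.71 to 0.44 (adjusted p = 0.741). That interval does not reach the lid's median of 1.06, and the averaged SEM1 change was positive without the second array of wild type with MMS, the range with 1 array left out being -0.32 to 0.053.

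**Figure D3:**
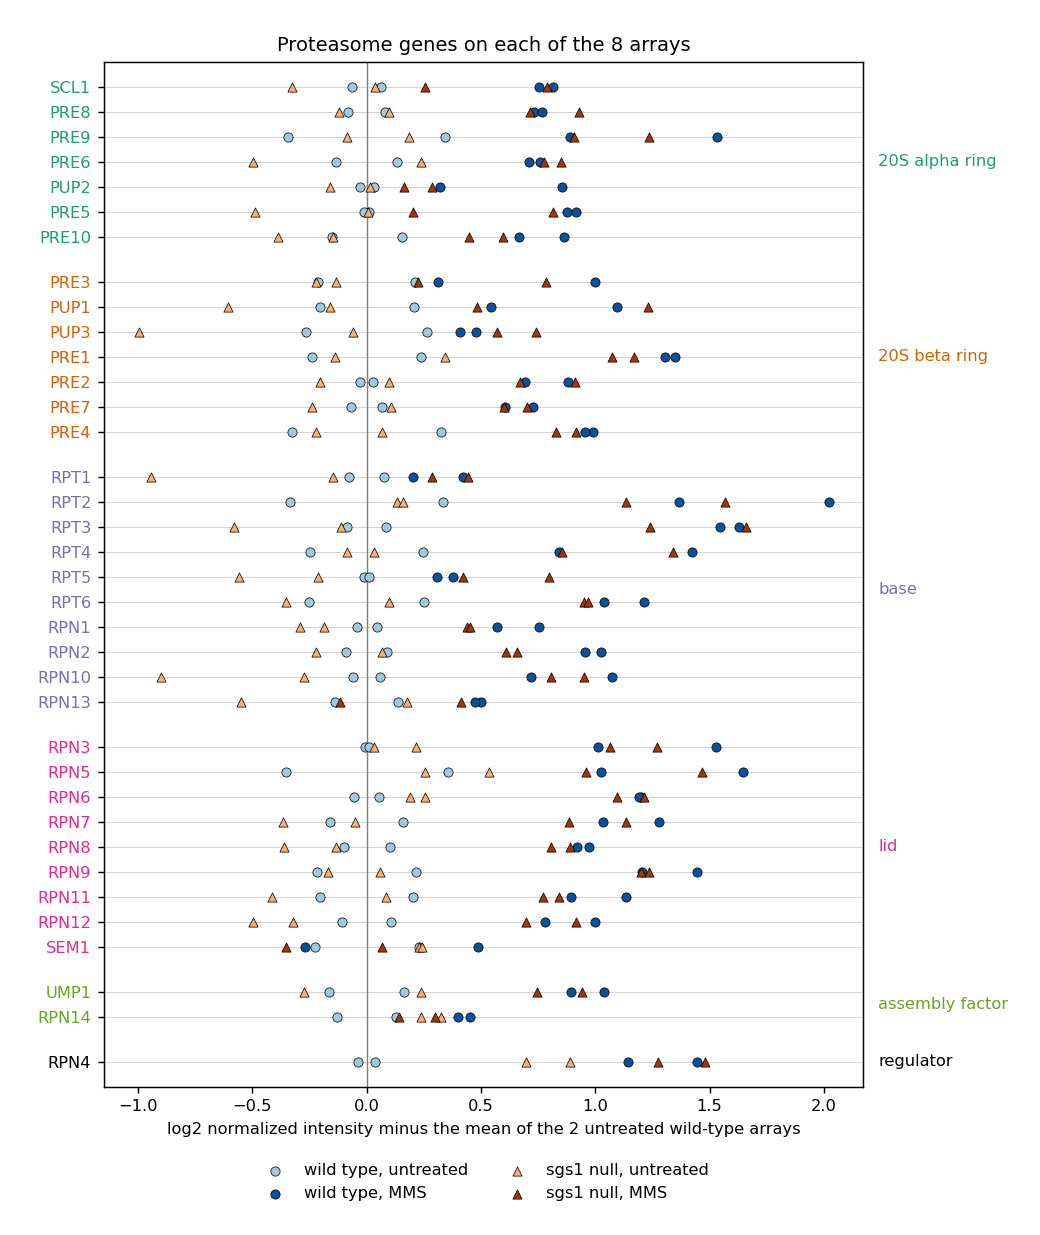
Each member's log2 normalized intensity on the 8 arrays, minus its mean on the 2 untreated wild-type arrays, with light symbols for untreated and dark symbols for MMS, circles for wild type and triangles for sgs1 null. The dark symbols lie right of the light ones within each strain for all but SEM1, RPN14 and RPN13, and the light triangles of RPN4 lie to the right of its light circles.

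The subunits differed in the size of the change. Over the 33 subunits the SD of the averaged change was 0.33, against a median standard error of 0.16. The SD over genes was 0.20 in the alpha ring and 0.18 in the beta ring, close to the median standard errors of 0.15 and 0.17 there. It was 0.40 in the base, between RPT3 as the largest and RPN13 as the smallest change. In the lid it was 0.42 with SEM1 and 0.10 over the other 8 genes, a split made after the values were seen. The medians of the 4 subcomplexes lay between 0.79 for the alpha ring and 1.06 for the lid on average, with their ranges overlapping, and the difference between subcomplexes was not tested. Array by array, the 33 subunits stood on average 0.98 and 0.83 above the untreated wild-type mean in wild type with MMS and 0.79 and 0.79 in sgs1 null with MMS. On the untreated sgs1 null arrays they stood at -0.04 and -0.23, while RPN4 stood at 0.70 and 0.89 on the same arrays. For comparison the subunits stood at 0.10 and -0.10 on the 2 untreated wild-type arrays, so the first untreated sgs1 null array lay between them, with 17 of 33 subunits above the untreated wild-type mean, and the second lay below them, with 9 of 33 above it.

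The medians of the MMS change lay near each other in the strains. The median change was 0.90 in wild type and 0.94 in sgs1 null, 20 members had the larger change in wild type and 16 in sgs1 null, and 32 of the 33 subunits had a positive change in both. Over the 36 members the change in one strain went with the change in the other (Pearson's r = 0.605, Spearman's rho = 0.501), a description over genes that share the same 8 arrays, and over all features these were 0.730 and 0.669. The median absolute difference between the strains' changes was 0.199 over the members and 0.281 over all features. With limma 0 members passed for the difference of the changes, where 0% of all features did. An unadjusted p under 0.05 was found for 3 members (RPN4, RPN14 and RPT5) and for 363 of all 7641 features. The 6 members called in sgs1 null, RPT3, RPN1, RPN6, RPN8, RPN9 and RPN12, were all among the 12 called in wild type, and another 15 members passed on average without passing in either strain.

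The members with the largest difference toward sgs1 null were PUP3, RPT5 and RPT1. PUP3 had a change of 0.44 ± 0.35 in wild type and 1.19 ± 0.35 in sgs1 null, a difference of 0.74 ± 0.50 with a 95% interval from -0.54 to 2.02. Its intensities were 9607 and 5020.0 in untreated sgs1 null and 12047 and 8336 in untreated wild type, so that the second untreated sgs1 null array was the lowest. RPT5 had a difference of 0.65 ± 0.25 (unadjusted p = 0.0474) and RPT1 of 0.59 ± 0.39. In both genes the 2 untreated sgs1 null arrays were below the untreated wild-type arrays. For RPT5 this was so for the mean of its 4 probe sets but not for each of them. The RPT5 probe set with the smallest change in wild type (0.06) had the largest in sgs1 null (1.58). Toward wild type, the largest differences after RPN4 were those of RPN5 (-0.52 ± 0.50) and SEM1 (-0.49 ± 0.45), with 95% intervals that covered 0. RPN14 came next at -0.49 ± 0.17, with a 95% interval from -0.93 to -0.05 that did not cover 0 (limma, unadjusted p = 0.0352). The interval of the difference covered 0 for 33 of the 36 members, and most were wide, so that like changes in the strains were not shown.

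**Figure D4:**
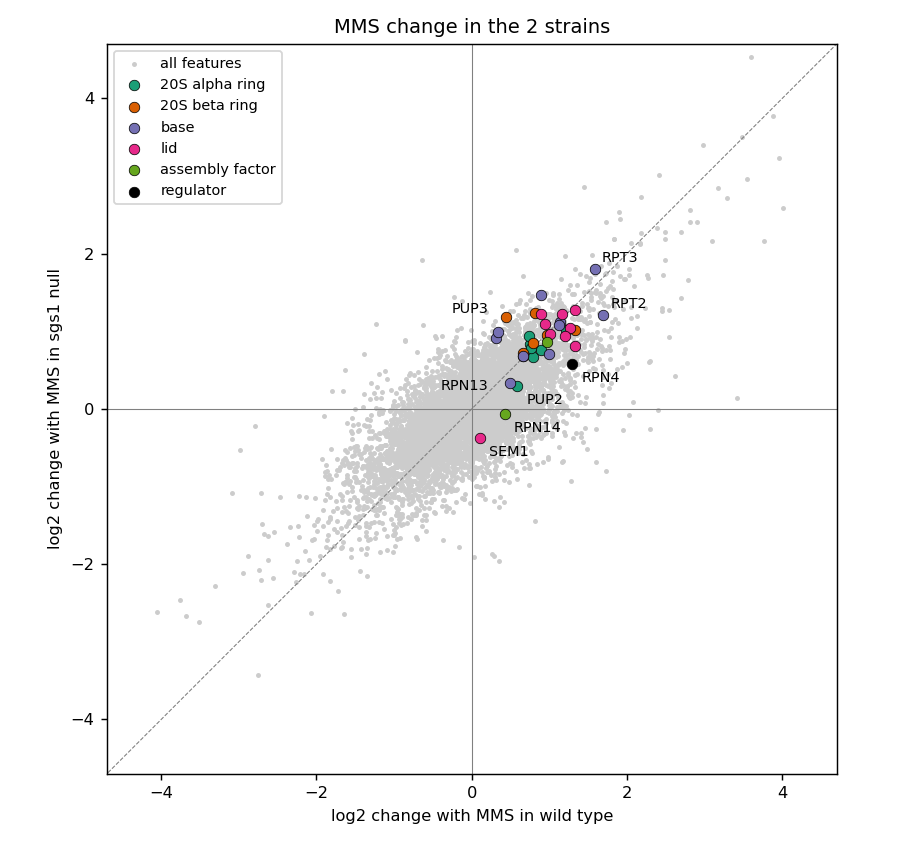
Log2 change with MMS in sgs1 null (vertical axis) against that in wild type (horizontal axis) for all 7641 features in grey and the 36 members in colour by subcomplex, with a dashed line where the strains are equal. Most members lie in the upper right near the dashed line, RPN4 lies below it and PUP3 above it.

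Differences between the strains did not pass the threshold for any member. The deleted gene SGS1 did not pass in limma either. Its difference was -2.74 untreated (adjusted p = 0.134), -2.18 with MMS (adjusted p = 0.299) and -2.46 averaged (adjusted p = 0.0637). On every sgs1 null array SGS1 had been raised to the floor of 97.1, from deposited intensities of 1.7 to 17.7. The floor thus limited the size of these differences. SGS1 is therefore no direct measure of what the test can miss among the members, nearly all of whose values lay above the floor. A member difference that did not pass is still not shown to be absent. Without treatment 0 members passed in limma, where 0.0262% of all features did. An unadjusted p under 0.05 was found for 3 of the 36 members and for 805 of all 7641 features. Without overlap, 5 members were higher in sgs1 null and 7 lower, where 19.3% and 19.6% of all features were, so these shares were near the background. The members higher in sgs1 null were RPN4, RPN14, RPN3, RPN6 and SEM1. Those lower were RPT1, RPT3, RPT5, RPN1, RPN10, RPN8 and RPN12, 5 of them base genes. RPN12 had the smallest unadjusted p of these 7, with intensities of 2350.2 and 2078 in untreated sgs1 null and 3164 and 2724 in untreated wild type and a difference of -0.41 ± 0.15 (unadjusted p = 0.0391, adjusted p = 0.455). Of the 33 subunits 26 had a lower mean in untreated sgs1 null. Over all 7641 features 4153 had a lower mean there and 3462 a higher one. The median member difference was -0.10, and that median was 0.018 without the second untreated sgs1 null array and -0.255 without the second untreated wild-type array.

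With MMS, 0 members passed for the strain difference in limma, where 0.0131% of all features did. An unadjusted p under 0.05 was found for 1 of the 36 members and for 472 of all 7641 features. That member was RPN2, at 8144 and 8424 in sgs1 null and 10850.2 and 10355 in wild type, a difference of -0.36 ± 0.13 (adjusted p = 0.739). Here 12 members were lower in sgs1 null without overlap, where 12.9% of all features were, and 3 were higher, where 12.6% were, so that the lower ones took a larger share than in all features. The 12 came from every subcomplex, with PUP2, PRE5 and PRE10 of the alpha ring, PRE1 and PRE4 of the beta ring, RPT6, RPN1, RPN2 and RPN13 of the base, RPN8 and RPN11 of the lid, and RPN14. Averaged over the treatments 0 members passed in limma, where 0.157% of all features did. An unadjusted p under 0.05 was found for 2 members (RPN1 at -0.23 ± 0.068 and RPN4 at 0.44 ± 0.10) and for 856 of all 7641 features. Of the subunits 19 of 33 had the lower mean in sgs1 null both with and without MMS, a count that is not given over all features. The members' median difference averaged over the treatments was -0.12. That median was -0.245 with median centring, -0.052 without the second untreated sgs1 null array, -0.061 without the first untreated wild-type array, -0.077 without the first of wild type with MMS, and -0.19 without the second untreated wild-type array or the second of wild type with MMS.

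Among 14 other assembly and associated factors of the proteasome, 3 rose in wild type, 2 in sgs1 null and 7 on average, where 3.42%, 1.43% and 8.78% of all features did, and 0 fell. The list's median averaged change was 0.63 against 0.00 over all features. HSM3, the gene of another base chaperone, rose by 2.46 ± 0.26 in wild type, where its intensity went from 146 and 219 to 1054 and 912. The change in sgs1 null was 1.30 ± 0.26 and did not pass (adjusted p = 0.0758). ADD66, of a chaperone pair for the alpha ring, rose by 1.40 ± 0.15 in wild type and 1.74 ± 0.15 in sgs1 null, and its partner PBA1 rose by 0.95 ± 0.16 on average. HUL5, which encodes a ubiquitin ligase bound to the proteasome, rose in wild type by 1.15 ± 0.17 and in sgs1 null by 1.37 ± 0.17. BLM10, the gene of an alternative cap of the core, rose by 0.96 ± 0.15 on average, and with the 8 arrays left out in turn PBA1 passed in 2 fits and BLM10 in 3. The chaperone genes IRC25 (-0.08), POC4 (-0.63), NAS2 (0.43) and NAS6 (0.14), picked for mention after their values were seen, did not pass on average. The calls of HSM3 and ADD66 in wild type were lost when any wild-type array was left out. Those of HUL5 in both strains and of ADD66 in sgs1 null were lost when any 1 of the 8 arrays was left out. On average HSM3, ADD66 and HUL5 each passed under all 15 alternatives run for them.

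Of 9 genes whose products act on RPN4 or its protein, YAP1 and MUB1 rose in wild type, in sgs1 null and on average, where 3.42%, 1.43% and 8.78% of all features did, and 0 fell. YAP1 encodes a stress-response transcription factor that acts on the RPN4 promoter. YAP1 read 842 and 951 in untreated wild type, 2857 and 3474 in wild type with MMS, 841 and 662 in untreated sgs1 null and 2303 and 2068 in sgs1 null with MMS. All treated arrays were above all untreated ones, and YAP1 rose by 1.82 ± 0.17 in wild type (adjusted p = 0.0146) and by 1.55 ± 0.17 in sgs1 null (adjusted p = 0.0296). MUB1, part of the ubiquitin ligase that marks the Rpn4 protein, rose by 1.09 ± 0.12 in wild type and by 0.93 ± 0.12 in sgs1 null. The other listed genes that act on the Rpn4 protein, UBR1, UBR2, RAD6 and UBC4, did not pass. UBR2 read 426 and 387 in untreated wild type and 190 and 400 with MMS, and its groups overlapped in both strains. RAD6 read 2433 and 2855 in untreated sgs1 null and 2416 and 1617 with MMS, and its groups overlapped in wild type. The list's median averaged change was 0.63, against 0.00 over all features. Of 12 measured ubiquitin genes and general ubiquitin enzymes, 1 rose in each strain, against the same background of 3.42% in wild type and 1.43% in sgs1 null. On average 3 rose, where 8.78% of all features did, and 1 fell, where 6.78% did, with a median change of 0.28. The 1 of 12 that fell was near the background. UBI4, the stress-induced polyubiquitin gene, rose by 0.72 ± 0.084 in wild type and by 0.63 ± 0.084 in sgs1 null. The deubiquitinase gene UBP14 and the conjugating enzyme gene UBC5 rose by 0.74 ± 0.13 and 0.67 ± 0.15 on average, and the ligase gene TOM1 fell by 0.39 ± 0.088. The YAP1, MUB1 and UBI4 calls in wild type were lost when any wild-type array was left out. Their calls in sgs1 null were lost when any 1 of the 8 arrays was left out. On average YAP1 and MUB1 passed under all 15 alternatives, UBI4 passed under 14 of 15, UBC5 passed in 1 of the 8 fits without an array, and UBP14 and TOM1 in none of them. RPL40A and RPL40B were not analysed here. In these 3 lists 0 genes passed in limma for the strain difference without treatment or with MMS or for the difference of the MMS changes, and 0 to 4 per list and comparison had an unadjusted p under 0.05.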

How the data were processed

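Each array gave 1 intensity per probe set, on a linear scale as deposited by the authors. Which array software, scaling or background correction made them is not given in the sources used here. Of 8363 probe sets, 8330 were kept, after 32 controls and 1 with a missing value. Gene names came from GEO's platform annotation, with 0 symbols updated through the RefSeq table of assembly R64. The intensities were quantile normalized over the 8 arrays, values below the 10th percentile (97.1) were raised to it, log2 was taken, and probe sets of one gene were averaged, so 36 of 36 members were tested. The floor was chosen with the values known.

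Group means were fitted over all 8 arrays in R 4.3.3 by limma 3.58.1, using lmFit and then eBayes with no trend. Residual degrees of freedom were 4 and prior ones 0.986. The 7 contrasts were the MMS change (each strain, averaged), the strain difference (untreated, with MMS, averaged) and the difference of the MMS changes. Tests were two-sided, with Benjamini-Hochberg adjustment over 7641 features and a threshold of 0.05. The fit was tested on simulated data with changes of known size. The members, the lists (assembly and associated factors, factors acting on RPN4, ubiquitin genes, mating-type markers) and the tests were chosen with earlier results of these data known. Array values are named for RPN4, UMP1, RPN14, SEM1 and the largest and smallest averaged change of each subcomplex, changes for called members and the 3 largest and smallest strain differences of the MMS change, and up to 4 called genes per list. Other named genes were picked after their values were seen.

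Alternatives were median centring, the deposited scale, other floors, the dimmest 25% left out, limma's trend and robust options, the mark as a block, fits of 1 strain, each array left out, and each probe set by itself. No sequences are printed, and the promoter search that had been planned was not run.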

Additional observations from a re-analysis of the deposited data

How the results depend on the processing

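Of 2469 values of single genes recomputed under the alternatives, 1980 stayed on the same side of the threshold and of 0, 434 of called genes no longer passed, 44 newly passed and 11 changed sign, none of which had passed. The mark rep was not taken to pair the arrays, since deviations of arrays with the same mark correlated above 0.1 in 4 of the 6 pairs of groups (0.25 to 0.73, with 0.59 between the wild-type groups and 0.73 between the MMS groups) and not in the other two (-0.07 and -0.05). For the unadjusted counts below, the same count over all features is not given. Called higher in wild type were 261 of all 7641 features in the main fit. The count was 237 with median centring, 209 with only values at or below 0 raised and 493 with the mark as a block. In sgs1 null these counts were 109, 86, 37 and 275, and averaged over strains 671, 586, 590 and 983. With only the 4 arrays of 1 strain 0 features passed, and with 1 array left out fewer passed than in the main fit. The number of members called also moved. In wild type it was 4 with median centring, 7 with only values at or below 0 raised, 22 with the mark rep as a replicate block, 0 with only the 4 wild-type arrays (29 with an unadjusted p under 0.05) and 0 to 5 with 1 array left out. In sgs1 null it was 2 with median centring, 1 with only values at or below 0 raised, 14 with the block, 0 with only the 4 sgs1 null arrays (25 with an unadjusted p under 0.05) and 0 with any 1 array left out. Averaged over strains it was 22 with median centring, 28 with the block and 13 to 23 with 1 array left out. A fit without an array, or of 1 strain, has fewer degrees of freedom, and a group left with 1 array is assumed to vary like the others. Under the other settings (the deposited scale, the 20th percentile floor, the dimmest 25% left out, trend and robust, single probe sets) the counts were 11 to 12 in wild type, 4 to 7 in sgs1 null and 23 to 30 on average. Over all features, single probe sets aside, 228 to 311 were called higher in wild type, 71 to 126 in sgs1 null and 548 to 688 on average. These were of 7641 features, or of 5730 with the dimmest 25% left out. With median centring the median change was 0.70 in wild type, 0.83 in sgs1 null, 0.80 on average, -0.28 and -0.245 for the strain difference untreated and averaged, and 0.090 for the difference of the MMS changes. With 1 array left out it ran from 0.82 to 1.005 in sgs1 null, from -0.255 to 0.018 for the strain difference untreated, from -0.23 to -0.069 for it with MMS, and from -0.14 to 0.14 for the difference of the MMS changes. The values that changed sign were SEM1 in wild type (-0.27 to 0.49 with 1 array left out) and on average (-0.32 to 0.053), RPN14 in sgs1 null (0.035 on the deposited scale, -0.14 to 0.015 with 1 array left out), RPN13 in sgs1 null (-0.023 to 0.71 with 1 array left out), IRC25 (0.019 on the deposited scale) and NAS6 (-0.0066 to 0.30 with 1 array left out) on average, and the RPN4 strain difference with MMS (-6.07e-05 with median centring, -0.068 to 0.24 with 1 array left out). The causes were not tested.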
